A study of Mus musculus with 12 samples.

Results

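The genes described here encode the respiratory chain downstream of complex I and the ATP synthase: succinate dehydrogenase (complex II), the cytochrome bc1 complex (complex III), cytochrome c, cytochrome c oxidase (complex IV) and F1Fo ATP synthase. They were chosen by symbol, as the rows named Sdha to Sdhd, Cyc1 or Cycs, or beginning with Uqcr, Cox4i, Cox5, Cox6, Cox7, Cox8 or Atp5. The rule found 49 of the 24197 rows of the count table. Complex II had 4 of them, complex III 9, cytochrome c 1, complex IV 17 and the ATP synthase 15. The other 3 carry the symbols but are not subunits: Cox7a2l encodes a factor that joins complexes III and IV into supercomplexes, Atp5s encodes the coupling factor B of the ATP synthase, and Atp5sl encodes a protein related to Atp5s.

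RNA was sequenced from brown adipose tissue (BAT) of mice aged 8 to 10 weeks, in 12 libraries that form 4 groups of 3. All animals carried floxed Ebf2 alleles (Ebf2 fl/fl). The mutant-labelled groups also carried a Cre recombinase driven by the Adipoq promoter, which is active in adipocytes (Adipoq-Cre+), and the control groups did not (Adipoq-Cre-). Within each genotype one group spent 1 week in the cold at 4 °C and the other stayed at room temperature. Ebf2 encodes a transcription factor of brown adipocytes, which the Cre would remove from adipocytes and not from other cells of the depot. Whether each library came from its own animal is not in the labels, so the spread behind every p-value may be technical.

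Library totals ran from 25835650 to 37927038 counts. Values below are counts scaled to a common library total (CPM) on TMM-scaled library sizes, and fold changes, standard errors (SE) and adjusted p-values are from edgeR's quasi-likelihood test over 15265 genes, with a gene called when its Benjamini-Hochberg adjusted p was under 0.05. Ebf2 itself had 28.7, 21.6 and 27.0 CPM in mutant-labelled cold libraries against 52.3, 42.2 and 41.6 CPM in control cold libraries. At room temperature it had 65.2, 45.7 and 38.3 CPM in mutant-labelled libraries against 47.4, 64.1 and 32.0 CPM in controls. The groups were apart in the cold and overlapped at room temperature, so the gene-level count does not bear out the label there, and the libraries are called mutant-labelled throughout. The labels do not place the floxed part of the gene, and reads outside it check nothing.

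Brown adipocytes hold dense mitochondria in which electrons pass from complex II, and from complex I, to ubiquinone, complex III, cytochrome c and complex IV, while protons are pumped out by the complexes other than II. In most tissues the ATP synthase uses the returning protons to make ATP. In brown fat the uncoupling protein UCP1 lets protons back without ATP being made, and the ATP synthase is known to be scarce relative to the respiratory chain. Several small subunits of complex IV exist as paired isoforms, with a heart and muscle form (Cox6a2, Cox7a1, Cox8b) and a form found in most tissues (Cox6a1, Cox7a2, Cox8a). Cox7a1 and Cox8b are also known as brown fat genes.

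Together the 49 genes took 4.81, 5.07 and 2.15% of all counts in mutant-labelled cold libraries, against 6.01, 5.33 and 5.08% in control cold libraries. At room temperature they took 3.20, 2.50 and 2.07% in mutant-labelled libraries, against 4.18, 3.88 and 4.96% in controls. The room temperature groups did not overlap, and in the cold mutant-labelled library 2 and control library 3 were nearly equal. Mutant-labelled cold library 3 stood far below the others of its group. Because the tissue is a mixture, fewer brown adipocytes and less of these RNAs per adipocyte cannot be told apart.

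Of the 49 genes, 47 passed the filter on low counts. Cox7b2, a testis isoform of a complex IV subunit, had 0 counts in all 12 libraries. Cox8c, another testis isoform, had 2 counts, both in mutant-labelled cold library 3, which is below the floor of 3 counts. Neither was tested.

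**Figure D1:**
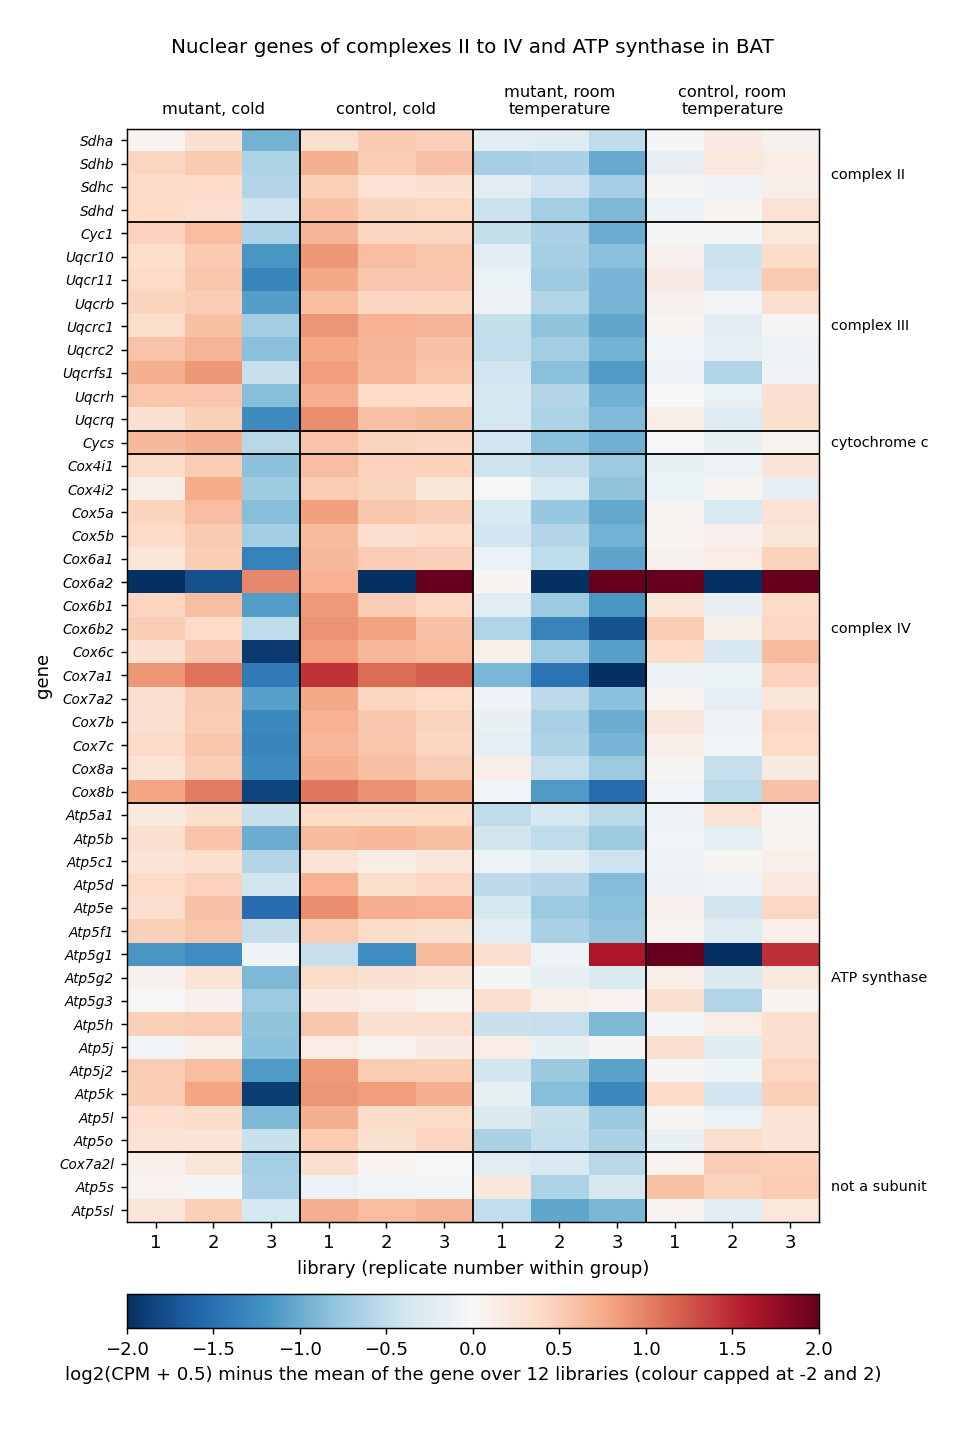
Levels of the 47 tested genes (rows, by complex) in the 12 libraries (columns, by group and replicate number), as log2(CPM + 0.5) minus the mean of the gene. Most rows are blue in mutant-labelled room temperature libraries and in mutant-labelled cold library 3, and red in control cold libraries; Cox6a2 and Atp5g1 follow another order of libraries.

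Libraries differed in ways that the labels do not name. The summed level of 26 skeletal muscle genes was 248, 500 and 7049 CPM in mutant-labelled cold libraries and 2970, 276 and 11708 CPM in control cold libraries. It was 1471, 105 and 24002 CPM in mutant-labelled room temperature libraries and 30148, 117 and 21272 CPM in control ones. Muscle transcripts were thus present in every group, the 4 richest libraries being control room temperature 1 and 3, mutant-labelled room temperature 3 and control cold 3. All 26 muscle genes had counts in 7 of the 12 libraries, and the number at 0 ran up to 8 in mutant-labelled room temperature library 2. Mutant-labelled cold library 3 also had 239 CPM over 5 epithelial genes, against 2.62 to 24.1 CPM in the other libraries. The 6 adipocyte genes were detected in every library. They summed to 15749, 16223 and 10075 CPM in mutant-labelled cold libraries and 13335, 14203 and 12801 CPM in control cold libraries, and to 20058, 14646 and 16145 CPM in mutant-labelled room temperature libraries and 13802, 9532 and 11125 CPM in control ones. At room temperature these sums did not overlap and were higher in mutant-labelled libraries. Fabp4 made up most of each sum, and alone it overlapped there, with 13298, 7949 and 9049 CPM in mutant-labelled libraries against 9625, 5377 and 7548 CPM in controls. The sum of 6 lens genes was 0.649 to 1.19 CPM in mutant-labelled room temperature libraries and 54.2 to 350 CPM in the other 9. The part of these cell types in the results below was not tested beyond the values given without the muscle-rich libraries or mutant-labelled cold library 3.

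At room temperature nearly the whole set was lower in mutant-labelled than in control libraries, and the number of genes past the test depended on the tool. Of 47 tested genes 46 had a fold change below 0, against 54.7% of all genes, and the median was -0.69 on the log2 scale, against -0.04 over all genes. In 30 of the 47 every mutant-labelled library lay below every control library, which was so for 11.9% of all genes. The test called 3 genes lower, or 3 of 47 against 2.32% of all genes called lower, and none higher, against 3.92% of all genes. At an unadjusted p under 0.05 there were 17, but the share of all genes at that threshold was not counted. DESeq2 called 11 lower (4.44% of all genes), limma-voom with quality weights 37 (8.08%), edgeR with a muscle covariate 6 (2.84%) and a fit of only these 6 libraries 4 (1.14%), and none of them called a gene of the set higher. The median was -0.60 over complex II, -0.68 over complex III, -0.75 over complex IV and -0.54 over the ATP synthase. In the same comparison the adipocyte genes had a median of 0.75, with Lipe (0.91 ± 0.15, adjusted p = 0.00514) and Plin1 (0.93 ± 0.15, adjusted p = 0.00392) called higher. The other adipocyte genes, Adipoq (0.60 ± 0.16), Fabp4 (0.43 ± 0.31), Lep (1.37 ± 0.84) and Pparg (-0.05 ± 0.19), were not called. Of the 6 lens genes 5 were called lower.

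The called genes were Cox6b2, Atp5sl and Atp5o. Cox6b2, the testis isoform of a complex IV subunit, had 3.79, 2.09 and 1.44 CPM in mutant-labelled libraries against 8.67, 6.58 and 8.13 CPM in controls, a difference of -1.67 ± 0.35 on the log2 scale (± SE, as below; adjusted p = 0.016). It was far less abundant than its common partner Cox6b1, which had 701, 494 and 368 CPM in mutant-labelled libraries against 970, 731 and 1072 CPM in controls. Atp5sl had 33.2, 22.7 and 24.8 CPM in mutant-labelled libraries against 48.8, 40.8 and 54.6 CPM in controls (-0.84 ± 0.21, adjusted p = 0.0338). Atp5o, the subunit of the peripheral stalk that confers oligomycin sensitivity, had 428, 477 and 431 CPM in mutant-labelled libraries against 609, 863 and 805 CPM in controls (-0.77 ± 0.20, adjusted p = 0.0424). For none of them did the groups overlap. No gene of the set was called without mutant-labelled library 2, without mutant-labelled library 3 or without control library 3. In these fits 0.961%, 1.16% and 0.964% of all genes were called lower, and 1.99%, 2.04% and 1.57% higher. Without the 4 muscle-rich libraries, which leaves 1 control, the median of the set was -0.28, against 0.02 over all genes.

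Among complex II genes, Sdhb, the iron-sulfur subunit, had 490, 495 and 387 CPM in mutant-labelled libraries against 699, 899 and 866 CPM in controls (-0.85 ± 0.25, adjusted p = 0.0748). Sdhd, a membrane anchor, had 411, 344 and 296 CPM in mutant-labelled libraries against 512, 576 and 675 CPM in controls (-0.75 ± 0.21, adjusted p = 0.0638). The groups were apart for both, but neither passed the test. Sdha, the flavoprotein, and Sdhc, the other anchor, differed by less, with log2 fold changes of -0.40 ± 0.25 and -0.45 ± 0.22, and their groups did not overlap either.

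All 9 complex III genes had fold changes between -0.75 and -0.52. In 6 of them the groups did not overlap, with mutant-labelled libraries lower, against 11.9% of all genes. Cyc1, the cytochrome c1 subunit, had 747, 667 and 524 CPM in mutant-labelled libraries against 1020, 1022 and 1214 CPM in controls (-0.75 ± 0.27, adjusted p = 0.131). Cycs, the mobile cytochrome c, had 690, 500 and 458 CPM in mutant-labelled libraries against 901, 807 and 940 CPM in controls (-0.69 ± 0.28, adjusted p = 0.189). Both were apart between the groups and not called.

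Complex IV had the widest range of fold changes, with the lowest that of Cox6a2, a muscle form, at -2.01 ± 2.33 (adjusted p = 0.717). Cox7a1 had 336, 227 and 143 CPM in mutant-labelled libraries against 578, 574 and 868 CPM in controls (-1.52 ± 0.52, adjusted p = 0.126). The groups were far apart. The gene did not pass the test here, but passed with DESeq2 (adjusted p = 0.0115), limma-voom (0.0045) and edgeR on only these 6 libraries (0.0483). Cox4i1, the common form of the largest nuclear-encoded subunit, had 1338, 1276 and 1076 CPM in mutant-labelled libraries against 1611, 1671 and 2131 CPM in controls (-0.55 ± 0.28, adjusted p = 0.303). Cox7a2l, which is not a subunit, had 135, 127 and 106 CPM in mutant-labelled libraries against 164, 219 and 217 CPM in controls (-0.71 ± 0.22, adjusted p = 0.0818).

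In the ATP synthase, 14 of 15 genes were below 0, against 54.7% of all genes. The groups were apart, with mutant-labelled libraries lower, for 8 of the 15, against 11.9% of all genes. Atp5k, a small membrane subunit, had the lowest fold change, -0.90 ± 0.55 (adjusted p = 0.416), with groups that overlapped. The genes nearest to no difference were Atp5g3, Atp5g2 and Atp5j. Atp5g3, which encodes subunit c, was the only gene of the set above 0, with 315, 267 and 258 CPM in mutant-labelled libraries against 308, 164 and 260 CPM in controls (0.20 ± 0.24, adjusted p = 0.727). Atp5g2, another gene for subunit c, had a fold change of -0.17 ± 0.24, and Atp5j, the coupling factor 6 of the stalk, of -0.15 ± 0.22. Cox8a was also near 0, at -0.24 ± 0.37 (adjusted p = 0.788).

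**Figure D2:**
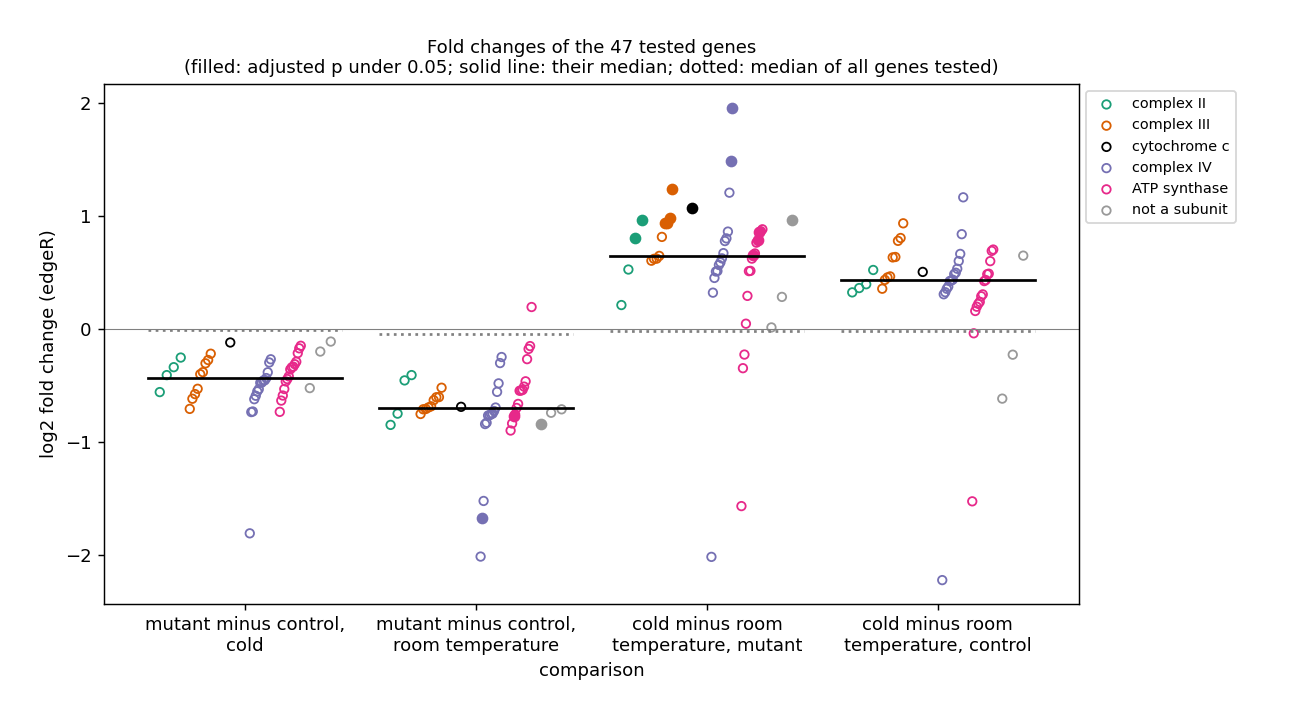
Log2 fold changes of the 47 tested genes in 4 comparisons of 2 groups, coloured by complex, with called genes filled, the median of the set as a solid line and the median of all genes tested as a dotted line. The set's median is -0.43 and -0.69 for mutant-labelled against control libraries in the cold and at room temperature, and 0.65 and 0.44 for cold against room temperature in mutant-labelled and control libraries.

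After a week of cold no gene of the set was called between the genotypes. All 47 genes had a fold change below 0, against 51% of all genes, with a median of -0.43 against -0.01 over all genes. In 15 of 47 the groups did not overlap, with mutant-labelled libraries lower, against 12% of all genes. The test called 0 of 47, against 0.393% of all genes called lower and 0.727% called higher. Only 1 gene had an unadjusted p under 0.05, a threshold at which the share of all genes was not counted. DESeq2 and limma-voom also called 0, against 1.52% and 3.09% of all genes called lower and 3.14% and 4.61% higher.

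Much of the difference in the cold lay in 1 library. Mutant-labelled cold library 3 was the lowest of its group for 45 of 47 genes, with a median of 0.418 times the mean of the other mutant-labelled cold libraries. Without it the median fold change between the genotypes was -0.10. Cox7a1 had 1164, 1345 and 237 CPM in mutant-labelled cold libraries against 1724, 1374 and 1445 CPM in control cold libraries (-0.73 ± 0.52, adjusted p = 0.533), and its log2 fold change was -0.27 without that library. Atp5e, the epsilon subunit of the ATP synthase, had 565, 672 and 156 CPM in mutant-labelled libraries against 849, 739 and 722 CPM in controls (-0.73 ± 0.41, adjusted p = 0.43). Cox6c, a small complex IV subunit, had 755, 889 and 163 CPM in mutant-labelled libraries against 1093, 967 and 939 CPM in controls (-0.73 ± 0.52, adjusted p = 0.534). For these 3 genes the other mutant-labelled libraries were also below every control library, but by less.

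The genes nearest to 0 between the genotypes in the cold changed sign without library 3. Atp5s had a fold change of -0.11 ± 0.24, Cycs of -0.12 ± 0.28, Atp5f1, a subunit of the peripheral stalk, of -0.14 ± 0.25, and Atp5c1, the gamma subunit of the rotor, of -0.17 ± 0.21. Cycs had 1403, 1468 and 608 CPM in mutant-labelled libraries against 1333, 1226 and 1211 CPM in controls, so that libraries 1 and 2 stood above every control. Without library 3 the fold change of Cycs was 0.19.

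The deficit of mutant-labelled cold library 3 was larger for short transcripts. Set against the mean of the other mutant-labelled cold libraries, its log2 difference had a Spearman correlation of 0.574 with transcript length over the 46 genes of the set matched to a length by symbol, and of 0.442 over 12581 genes with a mean of at least 1 CPM. The genes share the 3 libraries and their depth, so this is a description without a test. Lengths are those of the longest principal transcript, 4715 bases for Atp5g1, whose shortest is 596, and 1521 for Uqcrq, whose shortest is 405. Over all genes the median difference was -0.39 in the lowest length quintile and 0.29 in the highest. Cox8b, with a transcript of 360 bases, was at 0.147 times the other libraries, and Atp5a1, with 2471 bases, at 0.616 times. Mutant-labelled minus control cold libraries gave 0.55 over the same 46 genes and 0.316 over all genes, and at room temperature the values were 0.327 and 0.0631. Whether transcript length or handling of the RNA had a part in the fold changes was not tested.

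**Figure D3:**
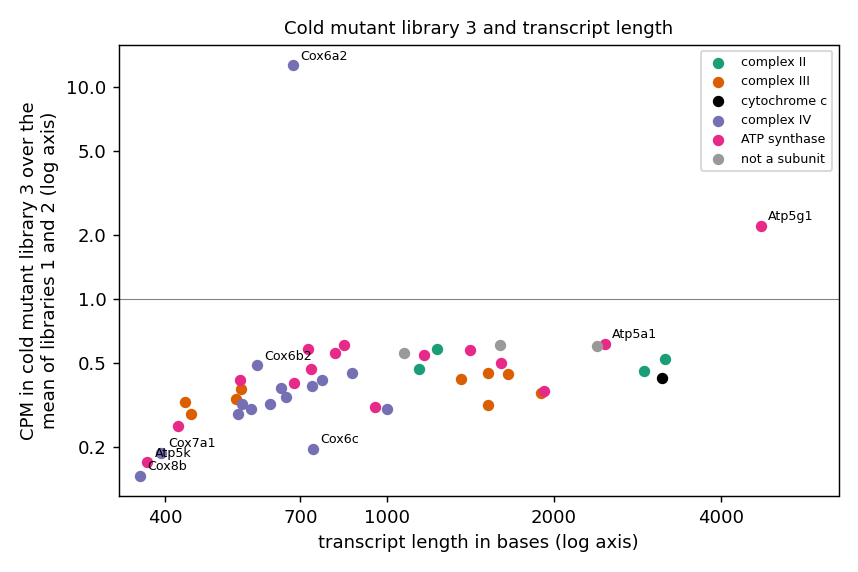
CPM in mutant-labelled cold library 3 over the mean of mutant-labelled cold libraries 1 and 2 (log axis) against the length of the longest principal transcript (log axis), 1 point per tested gene of the set, coloured by complex. The ratio is below 1 for 45 of 47 genes, runs as low as 0.147 for Cox8b, and is above 1 for Cox6a2 and Atp5g1.

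Most of the set was higher in cold than in room temperature control libraries, although no gene was called. Of 47 genes 42 had a fold change above 0, and the median was 0.44 against -0.01 over all genes. In 38 of 47 every cold library was above every room temperature library, against 18.9% of all genes, while Atp5s was apart in the other direction (14.4% of all genes). The test called 0 of 47, against 4.31% of all genes called higher and 2.31% lower. An unadjusted p under 0.05 was found for 8 genes of the set, and the share of all genes at that threshold was not counted. DESeq2 called 3 higher, against 7.31% of all genes, and limma-voom 6 higher (12.8% of all genes) and 1 lower (9.73%). A fit of only these 6 libraries called 6 higher (5% of all genes) and 1 lower (3.04%). All 9 complex III genes and all 4 complex II genes were apart between the groups.

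The highest fold change was that of Cox7a1, with 1724, 1374 and 1445 CPM in cold control libraries against 578, 574 and 868 CPM at room temperature (1.17 ± 0.52, adjusted p = 0.202). Uqcrfs1, the Rieske iron-sulfur protein of complex III, had 1576, 1398 and 1301 CPM in the cold against 821, 582 and 826 CPM at room temperature (0.94 ± 0.31, adjusted p = 0.0873). Cox8b had 2913, 2657 and 2390 CPM in the cold against 1356, 971 and 2111 CPM at room temperature (0.84 ± 0.62, adjusted p = 0.446). Uqcrc1, a core protein of complex III, had a fold change of 0.81 ± 0.28 (adjusted p = 0.0993). For each of them the lowest cold library exceeded the highest room temperature library.

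The genes with fold changes below 0 in controls were Cox6a2 (-2.22 ± 2.35), Atp5g1 (-1.52 ± 0.96), Atp5s (-0.61 ± 0.24), Cox7a2l (-0.22 ± 0.22) and Atp5j, which was at -0.03 ± 0.22. None was called. Atp5s had 8.09, 8.46 and 8.42 CPM in the cold against 13.4, 12.1 and 12.6 CPM at room temperature. Of the 3 genes that are not subunits, Cox7a2l and Atp5s were thus below 0 while Atp5sl was above it, with groups apart (0.65 ± 0.21, adjusted p = 0.0787).

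In mutant-labelled libraries cold raised 13 of the 47 genes, against 10% of all genes called higher, and lowered 0, against 7.42% called lower. The median was 0.65 against -0.01 over all genes, and 43 genes were above 0. The called genes were Sdhb and Sdhd of complex II, Cyc1, Uqcrc1, Uqcrc2 and Uqcrfs1 of complex III, Cycs, Cox6b2 and Cox7a1 of complex IV, Atp5d, Atp5f1 and Atp5o of the ATP synthase, and Atp5sl. Mutant-labelled cold library 3 was so low that the groups were apart in only 6 of the 47, against 16.7% of all genes. Without it 39 were called higher, against 13% of all genes, and every cold library was above every room temperature library in 42, against 26.8% of all genes. In the same comparison 4 of the 6 lens genes were called higher, and 3 of the 6 adipocyte genes lower.

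Cox7a1 rose most, with 1164, 1345 and 237 CPM in cold mutant-labelled libraries against 336, 227 and 143 CPM at room temperature (1.96 ± 0.53, adjusted p = 0.0281). Cold library 3 lay within the room temperature range. Cox6b2 had 8.67, 7.97 and 4.07 CPM in the cold against 3.79, 2.09 and 1.44 CPM at room temperature (1.49 ± 0.35, adjusted p = 0.0127), with no overlap. Uqcrfs1 had 1436, 1609 and 638 CPM in the cold against 665, 494 and 400 CPM at room temperature (1.24 ± 0.31, adjusted p = 0.0168), and here library 3 was just below the highest room temperature library. Cycs rose by 1.08 ± 0.28 (adjusted p = 0.0215), and Uqcrc2, the second core protein of complex III, by 0.99 ± 0.30 (adjusted p = 0.0428).

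Atp5sl had the smallest adjusted p of the set, with 56.0, 65.5 and 36.7 CPM in the cold against 33.2, 22.7 and 24.8 CPM at room temperature (0.97 ± 0.21, adjusted p = 0.00782). Sdhb rose by 0.97 ± 0.25 and Sdhd by 0.81 ± 0.21, with adjusted p of 0.0218 and 0.0226. Uqcrc1 and Cyc1 each rose by 0.94, with SE of 0.28 and 0.27 and adjusted p of 0.0358 and 0.0323. In the ATP synthase, Atp5d, the delta subunit of the rotor, rose by 0.86 ± 0.21, Atp5f1 by 0.79 ± 0.25 and Atp5o by 0.66 ± 0.20, with adjusted p of 0.0168, 0.0464 and 0.0415. For Sdhb, Sdhd, Atp5d, Atp5o, Atp5sl and Cox6b2 no cold library was as low as any room temperature library.

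Most of these calls were lost when any of 4 libraries was left out. The share of all genes called higher, 10% with all 12 libraries, also fell. Atp5sl was the only gene of the set called without mutant-labelled room temperature library 2 (5.96% of all genes) or without cold library 1 (5.89%). It was also the only one in a fit of only the 6 mutant-labelled libraries (6.54%). Atp5sl and Cox6b2 were called without room temperature library 3 (6.41%) or without cold library 2 (6.51%). Without the 4 muscle-rich libraries 0 genes of the set were called (4.72%). The genes with the lowest fold changes were Cox6a2 (-2.01 ± 2.36), Atp5g1 (-1.56 ± 0.96), Atp5g3 (-0.34 ± 0.24) and Atp5j (-0.22 ± 0.22), none called.

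Whether the cold response differed between the genotypes depended on the tool. In edgeR the interaction called 0 of 47 genes, against 0.295% of all genes called higher and 0.183% lower. An unadjusted p under 0.05 was found for 0 genes of the set, and the share of all genes at that threshold was not counted. DESeq2 also called 0, and limma-voom with quality weights called 7 higher, against 3.35% of all genes. The median interaction was 0.23 on the log2 scale and 0.68 with limma-voom. It was -0.14 without the 4 muscle-rich libraries, and with 1 library left out it ran from -0.0013 (mutant-labelled cold library 2) to 0.58 (mutant-labelled cold library 3). The smallest p on the positive side were those of Cox6b2 (1.05 ± 0.48, adjusted p = 0.41), Atp5s (0.63 ± 0.34, adjusted p = 0.497) and Cox7a2l (0.51 ± 0.31, adjusted p = 0.551). On the negative side they were Atp5g3 (-0.51 ± 0.34, adjusted p = 0.609), Atp5g2 (-0.24 ± 0.35, adjusted p = 0.844) and Cox8a (-0.34 ± 0.53, adjusted p = 0.862).

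Within complex IV the isoform balance was measured as the ratio of counts of the 2 members of a pair in the same library, which cancels the library's depth and scaling. It does not cancel a relation to transcript length, which over the set was 0.55 in the cold and 0.327 at room temperature between the genotypes (Spearman, above). Cox7a1 (393 bases) is shorter than Cox7a2 (659), and Cox8b (360) than Cox8a (550). Whether length had a part in the ratios was not tested. Cox7a1 and Cox8b are the muscle and brown fat forms and Cox7a2 and Cox8a the common forms. Per length, Cox7a1 averaged 2329 ± 1513 CPM per kb in mutant-labelled cold libraries and 3854 ± 470.0 CPM per kb in control cold libraries (SD, n = 3 each), and 598 ± 247 against 1714 ± 428 CPM per kb at room temperature. Cox7a2 averaged 544 ± 266 against 744 ± 110.0 CPM per kb in the cold, and 380 ± 102 against 530 ± 80.6 CPM per kb at room temperature. Cox8b averaged 5319 ± 3715 against 7370 ± 725 CPM per kb in the cold and 2299 ± 1285 against 4109 ± 1610 CPM per kb at room temperature, and Cox8a 1598 ± 826 against 2402 ± 186 and 1276 ± 411 against 1511 ± 332 CPM per kb. On this scale the group mean of the tissue form exceeded that of the common form in all 4 groups for both pairs.

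The promoter windows of both pairs are shown because the balance of 2 isoforms is the pattern described next. They are RefSeq windows on GRCm38.p6, from 250 bases before to 50 bases after the annotated start, 5′ to 3′ on the strand of the gene, with motif matches in capitals. The windows are chr7:30183921-30184220 (plus strand) for Cox7a1, chr9:79759804-79760103 (minus) for Cox7a2, chr7:140900397-140900696 (minus) for Cox8b and chr19:7217567-7217866 (minus) for Cox8a. The reads were counted on another build, mm9.
Cox7a1: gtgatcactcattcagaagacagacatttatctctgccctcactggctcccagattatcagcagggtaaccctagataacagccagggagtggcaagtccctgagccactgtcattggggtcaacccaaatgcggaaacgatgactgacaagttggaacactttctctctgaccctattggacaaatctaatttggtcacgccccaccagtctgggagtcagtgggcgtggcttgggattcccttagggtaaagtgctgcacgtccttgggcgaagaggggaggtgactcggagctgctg
Cox7a2: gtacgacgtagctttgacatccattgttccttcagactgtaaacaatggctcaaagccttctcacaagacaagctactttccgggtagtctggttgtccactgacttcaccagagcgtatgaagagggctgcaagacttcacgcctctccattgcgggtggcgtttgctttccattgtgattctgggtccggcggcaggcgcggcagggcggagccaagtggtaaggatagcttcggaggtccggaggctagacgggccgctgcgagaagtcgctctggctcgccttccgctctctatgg
Cox8b: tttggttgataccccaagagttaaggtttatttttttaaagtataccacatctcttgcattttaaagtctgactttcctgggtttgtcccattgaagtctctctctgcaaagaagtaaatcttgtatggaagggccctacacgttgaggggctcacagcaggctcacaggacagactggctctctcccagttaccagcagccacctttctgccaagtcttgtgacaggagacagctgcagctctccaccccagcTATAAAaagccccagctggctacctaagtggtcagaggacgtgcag
Cox8a: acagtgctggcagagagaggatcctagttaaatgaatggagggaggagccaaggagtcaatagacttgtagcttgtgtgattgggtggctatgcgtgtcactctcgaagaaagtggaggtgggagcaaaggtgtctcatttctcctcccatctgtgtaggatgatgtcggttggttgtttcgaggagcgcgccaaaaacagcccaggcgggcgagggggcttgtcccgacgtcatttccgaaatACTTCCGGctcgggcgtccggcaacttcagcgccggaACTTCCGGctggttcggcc

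The tissue forms had fewer CpG dinucleotides in these windows than their partners, 7 for Cox7a1 and 2 for Cox8b, while Cox7a2 had 20 and Cox8a 19. Of all genes 45.8% had fewer than Cox7a1 and 13.8% fewer than Cox8b. Low counts were not particular to the tissue forms, as Cox7b, outside these pairs, had 5. The median was 19 over the 38 genes of the set with a window and 8 over 27025 genes. Motifs were searched on both strands as exact letters. Cox8b held TATAAA, beginning 4 bases after the annotated start. This match was in 3 of 38 windows of the set (7.89%), also those of Atp5l and Cox7b2, and in 15.7% of all genes. The TATAAA motif was added after the Cox8b sequence had been seen. Cox8a held CCGGAAGT, a site of ETS factors such as GABP, on the other strand at 2 places, beginning -6 and 31 bases from the start. That site was in 4 of 38 windows of the set (10.5%), also those of Atp5h, Uqcr11 and Uqcrh, and in 4.31% of all genes. None of the searched motifs was in the windows of Cox7a1 or Cox7a2.

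Over the 38 windows, the NRF1 consensus palindrome, bound by a regulator of respiratory genes, was in those of Atp5g2, Atp5k, Cox6a1 and Uqcrc1 (10.5%, against 1.07% of all genes). The estrogen-related receptor element TCAAGGTCA was in those of Atp5g3 and Sdhd (5.26%, against 0.466%). The YY1 site was in the windows of Atp5j and Atp5sl (5.26%, against 0.995%), and the cyclic AMP response element TGACGTCA in 2, those of Cycs and Uqcrfs1 (5.26%, against 2.03%). The EBF palindrome was in 1 window, that of Cycs (2.63%, against 1.06%). These shares describe letters in short windows and were not tested. They were not matched for CpG content, whose median was 19 in the set against 8 over all genes, and the NRF1, GABP, YY1 and cyclic AMP motifs contain CG.

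The ratio of Cox7a1 to Cox7a2 was lower in mutant-labelled libraries and higher in the cold. It was 2.71, 2.76 and 1.49 in mutant-labelled cold libraries against 3.01, 2.99 and 3.30 in control cold libraries. At room temperature it was 1.04, 0.963 and 0.741 in mutant-labelled libraries against 1.66, 1.94 and 2.15 in controls. No mutant-labelled library reached the lowest control library at its own temperature, and in each genotype no cold library was as low as any room temperature library. The log2 difference between the genotypes was -1.08 at room temperature and -0.47 in the cold, each with an exact two-sided permutation p of 0.1, the smallest that 3 against 3 can give.

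Over both temperatures the mean difference between the genotypes was -0.77 on the log2 scale (exact stratified permutation test over 400 arrangements, p = 0.005, the smallest it can give, Benjamini-Hochberg adjusted p = 0.02 over 8 tests of 4 isoform pairs). Over both genotypes the difference between cold and room temperature was 1.00 (the same exact permutation test, p = 0.005, adjusted p = 0.02). The difference held its direction in 6 of 6 mutant-labelled libraries, each below every control library of its temperature. Without mutant-labelled cold library 3 it was -0.63 (adjusted p = 0.02), and without any one control cold library its adjusted p was 0.06. Among libraries poor in muscle transcripts, the ratio was 0.963 in mutant-labelled room temperature library 2 (muscle sum 105 CPM) against 1.94 in control library 2 (117 CPM), and 2.71 and 2.76 in mutant-labelled cold libraries 1 and 2 (248 and 500 CPM) against 2.99 in control cold library 2 (276 CPM). Without the 4 muscle-rich libraries both differences kept their direction, each with an exact permutation p of 0.0333, the smallest that the 30 arrangements left can give (adjusted p = 0.133).

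Cox8b over Cox8a was less clearly ordered. The ratio was 2.33, 2.37 and 1.08 in mutant-labelled cold libraries against 2.05, 2.01 and 1.96 in control cold libraries, so that 2 mutant-labelled libraries were above all controls and 1 below. At room temperature it was 1.42, 1.03 and 0.930 in mutant-labelled libraries against 1.54, 1.54 and 2.15 in controls, with no overlap (log2 difference -0.64, exact permutation p = 0.1). Over both temperatures the difference between the genotypes was -0.39 (adjusted p = 0.28), and over both genotypes that between cold and room temperature was 0.47 (adjusted p = 0.267). In the cold the genotype difference of -0.14 was 0.23 without mutant-labelled library 3. The counts of Cox8b alone gave -0.84 ± 0.62 at room temperature between the genotypes (adjusted p = 0.515) and 1.21 ± 0.62 between cold and room temperature in mutant-labelled libraries (adjusted p = 0.221).

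**Figure D4:**
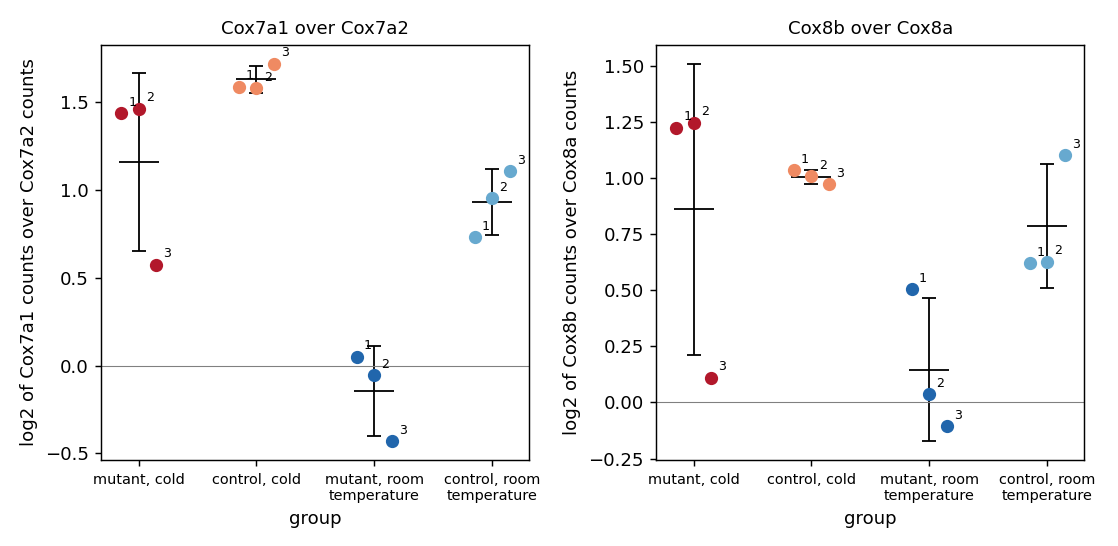
Log2 ratio of counts of Cox7a1 over Cox7a2 (left) and of Cox8b over Cox8a (right), 1 point per library with its replicate number, and mean and SD of each group of 3 in black. For Cox7a1 over Cox7a2 the mutant-labelled libraries lie below every control library at the same temperature; for Cox8b over Cox8a this is so at room temperature only, and cold mutant-labelled libraries 1 and 2 lie above the controls.

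The common forms differed by less than their partners in some comparisons. It was the other way in the cold between mutant-labelled and control libraries, with Cox8a at -0.59 ± 0.37 and Cox8b at -0.47 ± 0.62. Cox7a2 had a fold change of -0.48 ± 0.34 between mutant-labelled and control libraries at room temperature and of 0.52 ± 0.34 between cold and room temperature in mutant-labelled libraries, where Cox8a had 0.33 ± 0.37. None of these was called. The other pairs were dominated by 1 form. Cox4i2, the lung and hypoxia form of the subunit that Cox4i1 encodes, had 2.01 to 6.84 CPM in the 12 libraries, and its ratio to Cox4i1 ran from 0.00161 to 0.00290. Its difference between the genotypes was 0.14 on the log2 scale (adjusted p = 0.584) and that between cold and room temperature -0.04 (adjusted p = 0.825).

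Cox6a2 followed the muscle content of the libraries closely, and Atp5g1 did so only in the 4 richest. Cox6a2, the muscle form of the subunit of which Cox6a1 is the common form, had 0.521, 1.88 and 15.3 CPM in mutant-labelled cold libraries against 12.6, 0.527 and 49.5 CPM in control cold libraries. At room temperature it had 7.79, 0 and 64.5 CPM in mutant-labelled libraries against 188, 0.0727 and 103 CPM in controls. The order of the 12 libraries by Cox6a2 was that by the 26 muscle genes, except that mutant-labelled and control room temperature library 3 changed places. Cox6a1 had 924 to 3688 CPM in the same libraries, and the log2 fold change of Cox6a2 between the genotypes was -2.01 ± 2.33 at room temperature (adjusted p = 0.717) and -1.81 ± 2.35 in the cold (adjusted p = 0.753).

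Atp5g1 is the gene for subunit c whose low level is known to limit ATP synthase assembly in brown fat. It had 12.6, 11.9 and 27.2 CPM in mutant-labelled cold libraries against 20.8, 11.9 and 45.0 CPM in control cold libraries, and 36.6, 27.2 and 89.2 CPM in mutant-labelled against 136, 6.83 and 80.2 CPM in control room temperature libraries. The 4 muscle-rich libraries were the 4 highest. Below them the order was another: mutant-labelled room temperature library 2, with the lowest muscle sum (105 CPM), had as much Atp5g1 as mutant-labelled cold library 3 (7049 CPM). Atp5g1 gave 2.37 to 22.6% of the counts of the 3 subunit c genes, while Atp5g3 gave 51.3 to 63.8%. Per length, Atp5g1 averaged 3.65 ± 1.84 against 5.49 ± 3.64 CPM per kb in mutant-labelled and control cold libraries with its longest principal transcript of 4715 bases, and 28.9 ± 14.5 against 43.4 ± 28.8 CPM per kb with the shortest of 596 bases. On either length it was below Atp5g2, at 184 ± 70.0 against 245 ± 8.42, and Atp5g3, at 305 ± 85.5 against 378 ± 19.1 CPM per kb in the same groups.

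**Figure D5:**
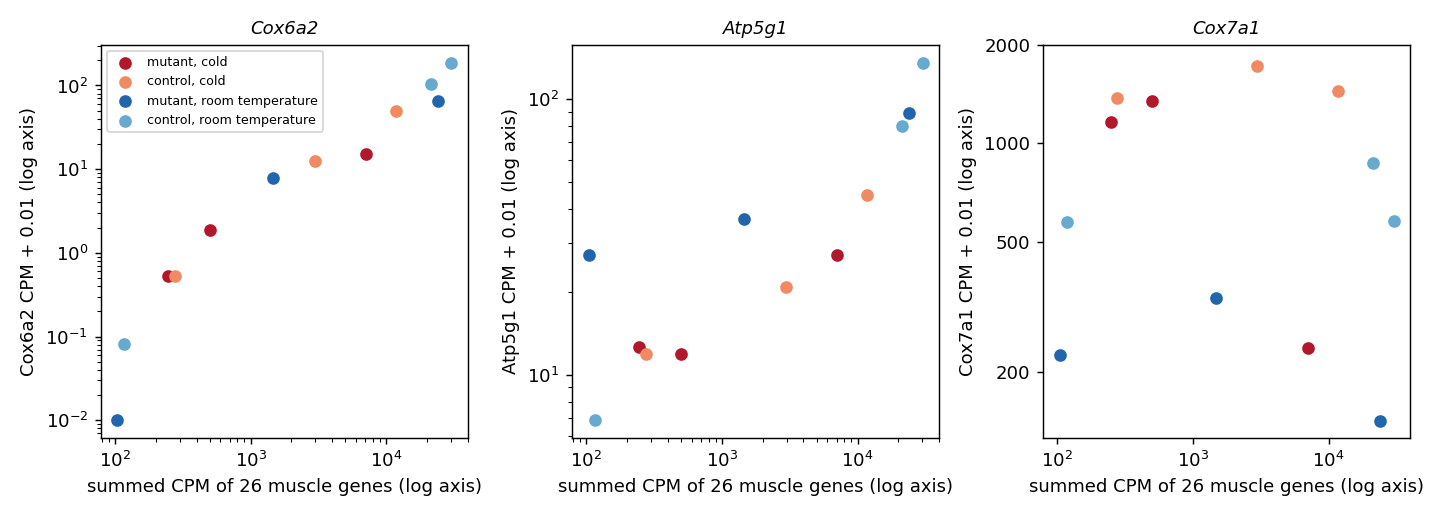
CPM + 0.01 of Cox6a2, Atp5g1 and Cox7a1 (log axes) against the summed CPM of 26 skeletal muscle genes (log axis), 1 point per library, coloured by group. Cox6a2 climbs with the muscle sum across all groups and Atp5g1 is highest in the 4 muscle-rich libraries, while Cox7a1 is highest in control cold libraries with muscle sums between 276 and 11708 CPM.

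Across genes, levels per length differed widely within a group. In control cold libraries the most abundant were Cox8b at 7370 ± 725, Cox6a1 at 6011 ± 394, Atp5b, the catalytic beta subunit, at 4779 ± 96.2, and Cox7a1 at 3854 ± 470.0 CPM per kb (SD, n = 3). In mutant-labelled room temperature libraries Cox6a1 led with 2880 ± 891 CPM per kb, followed by Cox8b at 2299 ± 1285 and Atp5b at 2147 ± 264, while Cox7a1 was at 598 ± 247. The SDs of Cox6a1, Cox8b and Atp5b overlapped there. Apart from the genes at or near 0 counts, the least abundant in control cold libraries were Atp5s at 5.21 ± 0.127, Cox4i2 at 7.23 ± 0.750, Cox6b2 at 18.1 ± 2.03, Cox6a2 at 30.7 ± 37.6 and Atp5sl at 31.7 ± 1.21, beside Atp5g1.

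A list of 40 genes is called assembly factors here, though not all of them build subunits or metal centres of these complexes into place. Of the 40, 3 were called lower in mutant-labelled libraries at room temperature, against 2.32% of all genes, and 0 higher, against 3.92%. The median was -0.31. Sco2, a copper chaperone of complex IV, had a fold change of -0.88 ± 0.19 (adjusted p = 0.0163), Lrpprc, which stabilises mitochondrial mRNAs, of -0.64 ± 0.16 (adjusted p = 0.0324), and Taco1, a translational activator of the mitochondrial gene for a complex IV core subunit, of -0.58 ± 0.13 (adjusted p = 0.0182). None of the 40 was called in a fit of only these 6 libraries, or without mutant-labelled library 2, control library 2 or control library 3. In these fits 0.961 to 1.46% of all genes were called lower and 1.57 to 2.75% higher. Without mutant-labelled library 1 or 3 the count was 1 (1.63% and 1.16% of all genes called lower), and without control library 1 it was 5 (3.27%). With limma-voom 12 were called lower, against 8.08% of all genes, and 1 higher, against 10.9%. In the cold 0 were called between the genotypes (1 by DESeq2 and 2 by limma-voom).

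Cold raised 18 of the 40 assembly factors in mutant-labelled libraries, with a median of 0.55, and 5 in controls, with a median of 0.37, against 10% and 4.31% of all genes called higher, and lowered 0 in either. With 1 library left out the counts were 10 to 27 in mutant-labelled libraries and 0 to 2 in controls. In these fits 5.89 to 13% and 1.44 to 3.44% of all genes were called higher. Without the 4 muscle-rich libraries the count in mutant-labelled libraries was 7, against 4.72% of all genes called higher. Cox10, which makes the heme of complex IV, rose by 1.45 ± 0.14 in mutant-labelled libraries (adjusted p = 0.000117) and by 0.61 ± 0.14 in controls (adjusted p = 0.0277). In mutant-labelled libraries Cox17, another copper chaperone, rose by 1.38 ± 0.38 (adjusted p = 0.0278), Cmc2 by 1.32 ± 0.30 (adjusted p = 0.0115), Sco2 by 1.21 ± 0.19 (adjusted p = 0.00125) and Taco1 by 1.06 ± 0.13 (adjusted p = 0.000327). In controls the others called were Cox19 (1.13 ± 0.26, adjusted p = 0.0284), Cox11 (0.90 ± 0.23, adjusted p = 0.0392), Coa7 (0.61 ± 0.14, adjusted p = 0.0284) and Sco1 (0.49 ± 0.12, adjusted p = 0.0384). The genotypes share no libraries in these comparisons. The interaction called none of the 40 in edgeR, 4 in DESeq2 and 8 in limma-voom, all higher. Of all genes these called 0.295%, 1.68% and 3.35% higher.

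The 2 most similar groups of mitochondrial genes gave values of the same sign. For 38 complex I subunits the median was -0.65 between the genotypes at room temperature with 1 called lower, near the 2.32% of all genes, and 0.63 for cold in mutant-labelled libraries with 9 called higher, against 10% of all genes. For 77 mitochondrial ribosomal protein genes the medians were -0.29 with 1 called lower and 0.52 with 27 called higher. The 6 brown adipocyte genes did not move one way between mutant-labelled and control libraries at room temperature, with 3 above 0, 3 below and a median of -0.06. Ucp1 was called lower (-1.77 ± 0.39, adjusted p = 0.0199) and Elovl3, an elongase of long fatty acids, higher (1.61 ± 0.27, adjusted p = 0.00452). The call of Ucp1 was lost in a fit of only these 6 libraries (adjusted p = 0.0747), without the 4 muscle-rich libraries (0.195), and without mutant-labelled library 2 or 3 or control library 2 or 3 (0.0654 to 0.0844). A difference between these groups and the set described here was not tested.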

How the data were processed

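RNA was measured in BAT in 12 libraries. Per the submitters' processing notes, the authors mapped reads with STAR to mouse build mm9 and counted them with featureCounts, and the deposited values are raw counts per gene. Per the labels' protocols, total RNA was made into libraries with an NEBNext Ultra RNA kit. Versions, gene annotation, strandedness and the rule for reads that map to more than 1 place are not given in the sources used, so genes with pseudogene copies or overlapping neighbours are uncertain.

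Counts were analysed in R 4.3.3 with edgeR 4.0.16: filterByExpr (minimum count 10, minimum total 15), TMM scaling, robust dispersions, and the quasi-likelihood F-test on all 12 libraries with 1 coefficient per group. Two-sided p-values were adjusted (Benjamini-Hochberg) over 15265 genes, and each SE follows from the F statistic. DESeq2 1.42.0 and limma 3.58.1 (voom with quality weights) were alternatives. On simulated counts for the room temperature genotype comparison, the test called 21 of 98 genes changed by 1 and 78 of 100 changed by 2 on the log2 scale. It also called 4 unchanged genes. Simulated libraries were drawn independently from the same mean levels, with no muscle-rich or outlying library, so these rates need not hold for the data. At the depths here 3 counts correspond to 0.0764 to 0.114 CPM, a floor for counting error alone, because PCR copies were not marked by molecular identifiers. Between replicates the chi-square per degree of freedom was 38.3 to 241, so no pair of replicates agreed within sampling noise.

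Isoform ratios used counts plus 0.5, with exact permutation tests in Python. Transcript lengths are from GENCODE M21 (GRCm38, longest principal transcript) and promoters from RefSeq (GRCm38.p6, 38 of 49 genes matched).

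The members, lists, isoform pairs, motifs and the rule for naming genes were chosen with earlier results of these data known. The rule names isoform genes, complex II, Cyc1, Cycs, Ebf2 and Ucp1 throughout, called members, and the 4 highest and 4 lowest fold changes of each comparison. Genes named for other reasons, such as Uqcrc1 beside a list or genes with a motif, were chosen after their values were seen, as were the counts of groups that do not overlap without a library and the counts of assembly factors under other settings. No proteins are shown. The macrophage list had 4 genes in the table, at a summed 30.3 to 84.9 CPM. The 6 brown adipocyte genes had 2964 to 15901 CPM.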

Additional observations from a re-analysis of the deposited data

How the results depend on the processing

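Counts of calls are given for all genes, then for the 47 tested genes of the set. DESeq2 called 1651 and 11 between the genotypes at room temperature, 717 and 0 in the cold, 1951 and 3 for cold in controls, and 436 and 0 in the interaction. Voom with quality weights called 2899 and 37, 1175 and 0, 3435 and 7, 1209 and 7 in the same order, and 5118 and 38 for cold in mutant-labelled libraries. With voom the median interaction of the set was 0.68. Fits of only the groups compared called 552 genes between the genotypes at room temperature, 102 in the cold, 7 of the set for cold in controls, and 1633 and 1 for cold in mutant-labelled libraries. A muscle covariate gave 6 of the set at room temperature between the genotypes. Without the 4 muscle-rich libraries 129 and 0 were called there, 18 and 0 in the cold, 13 and 0 for cold in controls, 1218 and 0 for cold in mutant-labelled libraries, and 26 and 0 in the interaction, whose median over the set was -0.14. The cause of these shifts was not tested.

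Leaving out 1 library gave 395 to 1152 called genes (0 to 3 of the set) between the genotypes at room temperature, 28 to 133 in the cold, 313 to 971 for cold in controls, 1466 to 3630 (1 to 39 of the set) for cold in mutant-labelled libraries, and 13 to 204 in the interaction. The median interaction of the set ran from -0.0013 to 0.58. RLE size factors, the CPM filter and no filter kept each count of calls over all genes and over the set within 1.5 times.

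Some single genes changed sign. Without the muscle-rich libraries, log2 fold changes between the genotypes at room temperature were 0.25 for Atp5j, 0.22 for Atp5g2, 0.34 for Cox8a, 5.69 for Cox6a2, 0.046 for Cox8b and -0.20 for Ebf2. For cold in controls they were 6.42 for Cox6a2 and 1.26 for Atp5g1, and for cold in mutant-labelled libraries 0.58 for Cox6a2. With voom, those between the genotypes in the cold were 0.050 for Atp5s, 0.13 for Cycs, 0.072 for Atp5f1 and 0.020 for Atp5c1, that of Cox6a2 for cold in mutant-labelled libraries was 0.51, and interactions were 0.073 for Atp5g2 and 0.17 for Cox8a. With 1 library left out, those between the genotypes at room temperature ran from -0.18 to 0.33 for Ebf2 and from -0.018 to 0.40 for Atp5g3. In the cold they ran from -0.24 to 0.094 for Atp5s, from -0.32 to 0.19 for Cycs, from -0.31 to 0.12 for Atp5f1 and from -0.32 to 0.070 for Atp5c1. For cold in mutant-labelled libraries Cox6a2 ran from -4.34 to 0.56 and Atp5j from -0.41 to 0.0078. Interactions ran from -0.47 to 0.037 for Atp5g2 and from -0.66 to 0.026 for Cox8a.

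The log2 ratio of Cox7a1 to Cox7a2 kept its direction throughout. Its difference between the genotypes was -0.69, and between cold and room temperature 0.90, without the muscle-rich libraries (exact permutation test, p = 0.0333 each, the smallest 30 arrangements can give, adjusted p = 0.133), and the genotype difference ran from -0.85 to -0.63 with 1 library left out. The ratio of Cox8b to Cox8a ran from -0.34 to 0.23 between the genotypes in the cold. That of Cox6a2 to Cox6a1, without the muscle-rich libraries, differed by 2.51 at room temperature, 0.71 in the cold and 1.61 over both between the genotypes, and by 4.41 in controls, 2.62 in mutant-labelled libraries and 3.52 over both between cold and room temperature. With 1 library left out these ran from -5.23 to 1.72, -2.62 to 0.71, -2.98 to 0.49, -4.60 to 0.94, -3.56 to 2.62 and -2.35 to 0.76. That of Cox4i2 to Cox4i1 for cold in controls was -0.17 without the muscle-rich libraries and ran from -0.15 to 0.15 with 1 library left out, from -0.26 to 0.054 in mutant-labelled libraries and from -0.12 to 0.038 over both. Between the genotypes in the cold it ran from -0.066 to 0.21.

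A replicate block on the numbers in the labels called 2 of the set between the genotypes at room temperature, 12 for cold in mutant-labelled libraries and 0 otherwise, and 34 genes in the interaction. Whether the numbers pair the libraries is not settled. The deviations of same-numbered libraries correlated at 0.149, 0.733 and 0.494 between the genotypes at room temperature and at -0.0116, 0.214 and 0.499 in the cold, and on log2(CPM + 1) at 0.0577, 0.781 and 0.504 between the genotypes at room temperature.

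Depth limits Cox6a2, which had 0 to 16 counts in 4 libraries.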
